A study of Mus musculus with 15 samples.

Results

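Wild-type TTP had crosslink sites in the 3′UTRs of 1295 genes at 1 h of LPS, and 81 of these genes had a 3′UTR site in the smaller list of 4 h. Individual-nucleotide resolution crosslinking and immunoprecipitation (iCLIP), which reads the position where a protein was UV-crosslinked to RNA, gave 1 list of sites for each time. The sites of GFP-TTP at both times were taken by their list, 25960 sites with 99263 unique cDNAs at 1 h and 8052 sites with 29060 cDNAs at 4 h, together 34012 of the 162273 sites in the 6 lists of the series. The value of a site is its number of unique cDNAs, and the sign gives its strand. The 1 h list is the sum of 4 libraries and the 4 h list of 2.

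The cells were bone marrow-derived macrophages of C57BL/6 background that lacked endogenous TTP (Zfp36tm1Pjb) and had been immortalized with human c-myc and Ras G12V. They carried a retroviral doxycycline-inducible vector for the GFP fusion, which holds the coding sequence of TTP, and were sorted for GFP. All groups named here received doxycycline (1 µg/ml, 6 h). LPS (1 µg/ml) was present for 1 h or 4 h, and values of the unstimulated 0 h list of the same protein (2 libraries) and of the TTP-AA lists at 1 h (3 libraries) and 4 h (2 libraries), from the mutant without the MK2 phosphorylation sites, are set beside them where named. No control library was used here. Of 10 macrophage markers, 3 had a 3′UTR site at 1 h, led by Lyz2 with 68 cDNAs, and 0 at 4 h, when Lyz2 had sites in its coding sequence, while 0 of 5 markers each of T cells, B cells, neutrophils and fibroblasts had a site in an mRNA exon at either time.

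Each list holds sums over its libraries, so no value has a replicate error and no test between the times was possible. All intervals given are 95% intervals for counting error. The header of the 1 h list carried a mark on how regions were treated in peak calling that the 4 h header lacked, so time, peak calling and the number of libraries cannot be told apart. The TTP-AA list of 1 h carried the same mark and the 0 h and TTP-AA 4 h lists lacked it, so values from these lists are not independent of it. Fewer cells, less of a transcript per cell and less TTP on each transcript cannot be told apart either. A count of 0 at 4 h allows a share of up to 0.0103% of that list.

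TTP is a zinc finger protein that binds AU-rich elements in the 3′UTRs of short-lived mRNAs, with the pentamer AUUUA as their core, and recruits the deadenylation machinery. LPS acts through Toll-like receptor 4 and activates p38 MAPK and its target kinase MK2, which phosphorylates TTP and thereby restrains its activity. Cytokine and chemokine mRNAs such as Tnf are its best known targets in macrophages.

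The windows of 29 nt around the leading sites show what TTP contacted on transcripts that kept, gained or lost sites. They were read from GENCODE M21 transcripts (GRCm38), the crosslinked base is the 15th, T stands for U, and capitals mark AUUUA. The first 3 windows (chr17:35199646-35199674, chr11:83648002-83648030 and chr4:117884563-117884591, all minus strand) kept sites at 4 h.
Tnf: cttatgaatgtATTTAtttggaaggccgg
Ccl3: tatttgtgactATTTAttctgaaagactt
Atp6v0b: gccctactgttATTTAttgctggttttcc
The Tnf window held 412 cDNAs at 1 h and 33 at 4 h. The Ccl3 window held 155 and 47 cDNAs, and that of Atp6v0b held 60 and 15.

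The window of the gene with the largest relative gain among genes called higher in 3′UTRs (chr4:145213685-145213713, minus strand) has the pentamer at its 5′ side.
Tnfrsf1b: cctATTTAataagttagttttgaactggc
It held 6 cDNAs at 1 h and 22 at 4 h. The leading windows of 2 genes that had sites at 1 h and 0 at 4 h (chr17:26505868-26505896, minus strand, and chr11:82037212-82037240, plus strand) hold the same pentamer.
Dusp1: ttttacctttATTTAtttttgtgtaggtc
Ccl2: aaacttATTTAacttattgatgttatggt
At 1 h they held 42 and 40 cDNAs in this order. The leading windows of Cxcl2, Mdm2 and Nfkbia, which were also at 0 at 4 h, hold no AUUUA. Among genes that kept sites, it is also absent from both leading windows of Pfn1, from those of Ccl3, Actb and Tnfrsf1b at 1 h and from that of Ccl4 at 4 h.

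The share of cDNAs in 3′UTRs fell from 9.63% (9558 cDNAs, Wilson interval 9.45 to 9.81%) at 1 h to 3.12% (906 cDNAs, 2.92 to 3.32%) at 4 h, a difference of -6.51 percentage points (Newcombe interval -6.78 to -6.24). Counted over sites, 26.1% of the 1 h sites and 6.67% of the 4 h sites lay in 3′UTRs. The shares in coding sequence (CDS) and in 5′UTRs were also lower, at 1.5% and 0.84% for CDS and 1.05% and 0.678% for 5′UTRs. Introns rose from 15.5% to 19.7% and intergenic positions from 39.5% to 42.4%. The share in exons of non-coding genes was 32.8% at 1 h and 33.3% at 4 h, a difference of 0.555 points whose interval includes 0 (-0.0591 to 1.17). Its direction rested on the ribosomal RNA locus on chromosome 17 (Gm26917 and Gm42418), without which the share was 10.3% at 1 h and 6.65% at 4 h. The 3′UTR difference without that locus was -8.88 points (-9.26 to -8.49). In the 0 h list, which like the 4 h list is the sum of 2 libraries and lacks the header mark, the 3′UTR share was 13% (4369 cDNAs). In the TTP-AA lists the 3′UTR share was 53.6% at 1 h and 5.22% at 4 h.

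**Figure D1:**
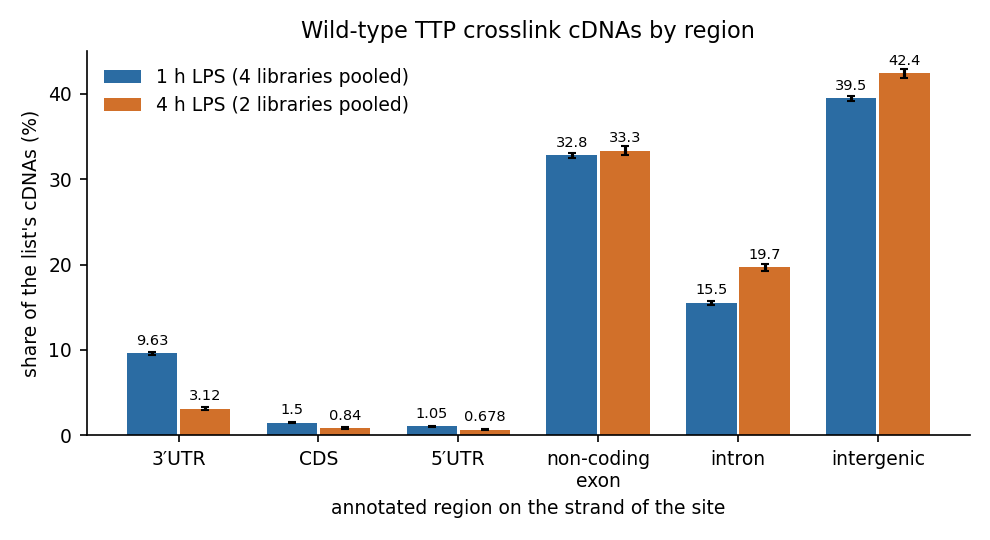
Bars give the share of each list's cDNAs (y axis, percent) in 6 annotated regions (x axis) at 1 h (blue, 4 pooled libraries) and 4 h (orange, 2 pooled libraries), with 95% Wilson intervals for counting error. The 3′UTR share is 9.63% at 1 h and 3.12% at 4 h, while the intron and intergenic shares are higher at 4 h.

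Of 1295 genes with a 3′UTR site at 1 h, 81 had one at 4 h (6.25%, Wilson interval 5.06 to 7.71%), 1214 had none and 46 genes had one only in the 4 h list. For scale, thinned at random to the 29060 cDNAs of the 4 h list, the 1 h list would keep 899 of its 1295 genes, and thinned to the 906 cDNAs in 3′UTRs it would keep 450. Thinning does not repeat the peak calling, whose part in the loss of genes was not tested. Genes with many cDNAs at 1 h were found again more often, from 5 of 437 genes with 1 or 2 cDNAs to 11 of 22 genes with 50 or more. Of 156 genes with at least 10 cDNAs at 1 h, 40 were found again (25.6%), where thinning to the 3′UTR cDNAs would keep 126. CDS sites were kept in 18 of 344 genes, 5′UTR sites in 20 of 190 and intron sites in 219 of 1298, and exons of non-coding genes kept sites in 83 of 263 genes (31.6%).

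**Figure D2:**
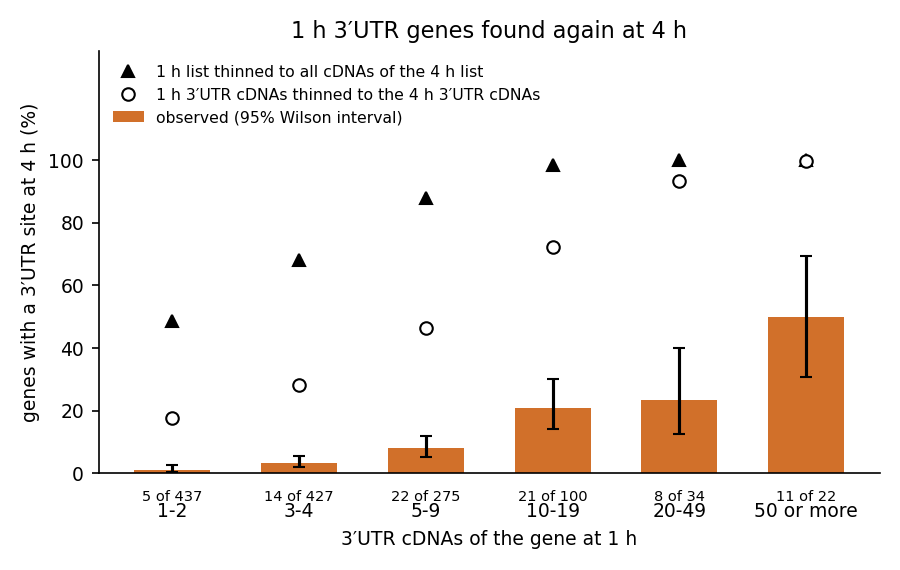
Bars give the share of 1 h 3′UTR genes that had a 3′UTR site at 4 h (y axis, percent, 95% Wilson intervals) by their cDNAs at 1 h (x axis), with the number of genes under each bar. Triangles and open circles give the share expected if the 1 h list were thinned to all cDNAs or to the 3′UTR cDNAs of the 4 h list, and every bar is below both, with 11 of 22 genes found again in the highest group.

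For each gene with at least 10 3′UTR cDNAs over both lists (170 genes), its share of all cDNAs of the list was compared between the times, with counts under 3 set to 3, and a ratio of 2-fold or more was called. For a gene at 0 at 4 h, here and in other regions, a fold given as at least comes from this floor. It is not a bound of the exact interval, which allows smaller falls. For the 5′UTR of Fth1 (55 and 0 cDNAs) the floor gave 5.37-fold, while the interval reached a ratio of 0.237. The share was lower at 4 h in 42 genes (24.7% of those tested) and higher in 10 (5.88%). Of the 170 genes, 156 had at least 10 cDNAs at 1 h, and the others passed the filter only with their 4 h cDNAs added. A higher call among those others is therefore partly set by the filter. Measured instead as a share of the 3′UTR cDNAs, which removes the fall of the whole region, 8 genes were lower (4.71%) and 39 higher (22.9%). The 2 scales are therefore given side by side for named genes, and the median ratio over all tested genes was 0.788 on the first and 2.43 on the second. The second scale depends on Lars2, described below, which held 291 of the 9558 3′UTR cDNAs at 1 h and 197 of 906 at 4 h. Without Lars2 the totals were 9267 and 709, so falls of other genes on this scale would be smaller and rises larger. Calls near 2-fold, such as those of Dusp1 and Lyz2, may not hold without it. Of the 42 genes called lower, 36 were at 0 at 4 h. Another 80 genes at 0 at 4 h had at most 20 cDNAs at 1 h, and at this depth a 2-fold fall could not be called for them.

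**Figure D3:**
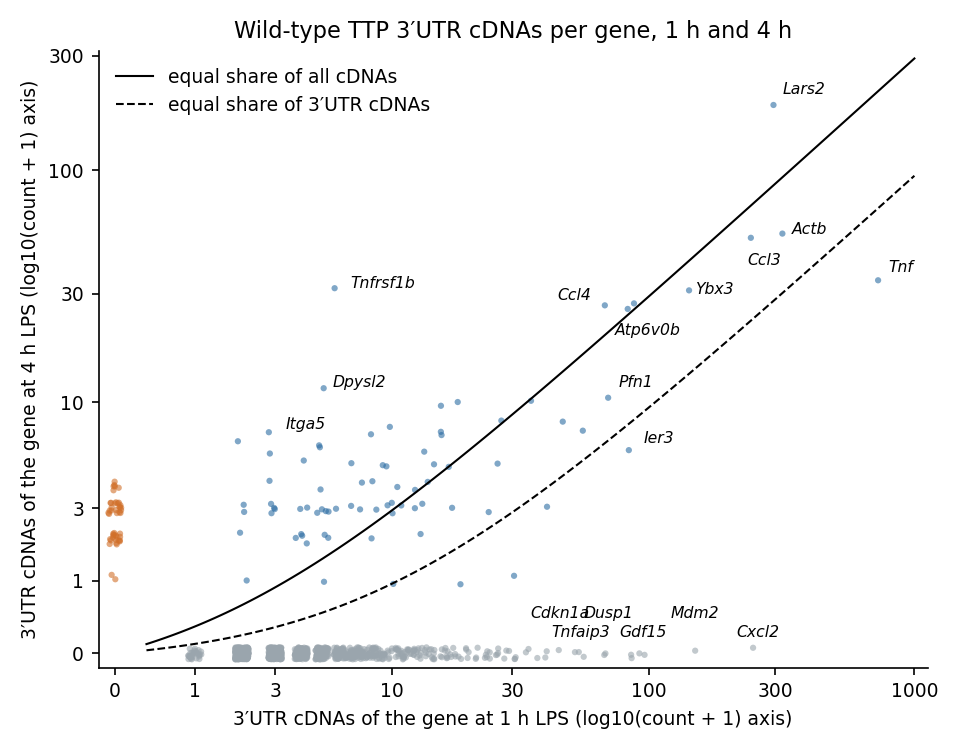
Each point is a gene, placed by its 3′UTR cDNAs at 1 h (x axis) and at 4 h (y axis) on log10(count + 1) axes with slight scatter, in blue for both lists, orange for 4 h alone and gray for 1 h alone. The solid and dashed lines mark an equal share of all cDNAs and of 3′UTR cDNAs, and Lars2 and Tnfrsf1b are above both lines while Tnf (727 and 35 cDNAs) is below both.

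Among 26 cytokine and chemokine genes, 13 had a 3′UTR site at 1 h and 5 of these at 4 h, namely Tnf, Ccl3, Ccl4, Ccl7 and Il1rn. Over all genes, 81 of 1295 had a 3′UTR site again at 4 h, and 40 of the 156 with at least 10 cDNAs at 1 h. Of 11 tested members, 5 were lower and 0 higher as a share of all cDNAs (median ratio 0.714), and 3 were lower and 4 higher as a share of 3′UTR cDNAs (median 2.21). Of all 170 tested genes, 42 were lower and 10 higher on the first scale, and 8 and 39 on the second. Tnf, the founding TTP target, had 727 cDNAs at 131 sites at 1 h and 35 cDNAs at 14 sites at 4 h, against 213 for an equal share of the list. Its ratio was 0.164 (exact interval 0.114 to 0.231) of all cDNAs and 0.508 (0.351 to 0.713) of 3′UTR cDNAs. Cxcl2, a neutrophil-attracting chemokine, went from 258 cDNAs to 0 and was at least 25.2-fold lower of all cDNAs and at least 8.15-fold lower of 3′UTR cDNAs. Ccl2, which attracts monocytes, went from 81 cDNAs to 0, at least 7.9-fold lower and at least 2.56-fold lower on the 2 scales. Tnf and these 2 chemokines were below an equal share on either scale.

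Ccl3 and Ccl4, neighbouring genes on chromosome 11 that encode inflammatory chemokines, had sites in both lists. Ccl3 had 244 cDNAs at 1 h and 51 at 4 h, a ratio of 0.714 (0.517 to 0.969) of all cDNAs that turned to 2.21 (1.6 to 2.99) of 3′UTR cDNAs. Ccl4 had 67 and 27 cDNAs, with ratios of 1.38 (0.846 to 2.18) and 4.25 (2.61 to 6.74). Ccl7 had 11 and 4 cDNAs. Il1rn, the interleukin 1 receptor antagonist, had 7 and 4 cDNAs, of which 6 and 4 lay in sequence shared with small RNA genes. In the TTP-AA lists at 1 h and 4 h, Tnf held 1673 and 77 cDNAs, Ccl3 938 and 33, Ccl4 886 and 31, and Cxcl2 2536 and 8.

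The positions of the sites within these 3′UTRs were compared next. The Tnf sites spread from nt 421 to 666 after the stop codon at 1 h and from nt 469 to 495 at 4 h, and all 14 sites of the 4 h list lay within 15 nt of a 1 h site. The leading site was the same at both times, nt 485 (position 35199660), with 52 cDNAs at 1 h and 12 at 4 h. Its 29-nt window held 56.7% of the Tnf cDNAs at 1 h (Wilson interval 53 to 60.2%) and 94.3% at 4 h (81.4 to 98.4%). The Ccl3 window shown above held 63.5% (57.3 to 69.3%) and 92.2% (81.5 to 96.9%), whereas the window at its leading 1 h site held 69.7% (63.6 to 75.1%) and 80.4% (67.5 to 89%), with overlapping intervals. For Ccl4, the window around its leading 4 h site at nt 189 held 34.3% (24.1 to 46.3%) and 77.8% (59.2 to 89.4%). The windows were chosen at their highest site, and a list with fewer cDNAs can call fewer outlying sites.

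**Figure D4:**
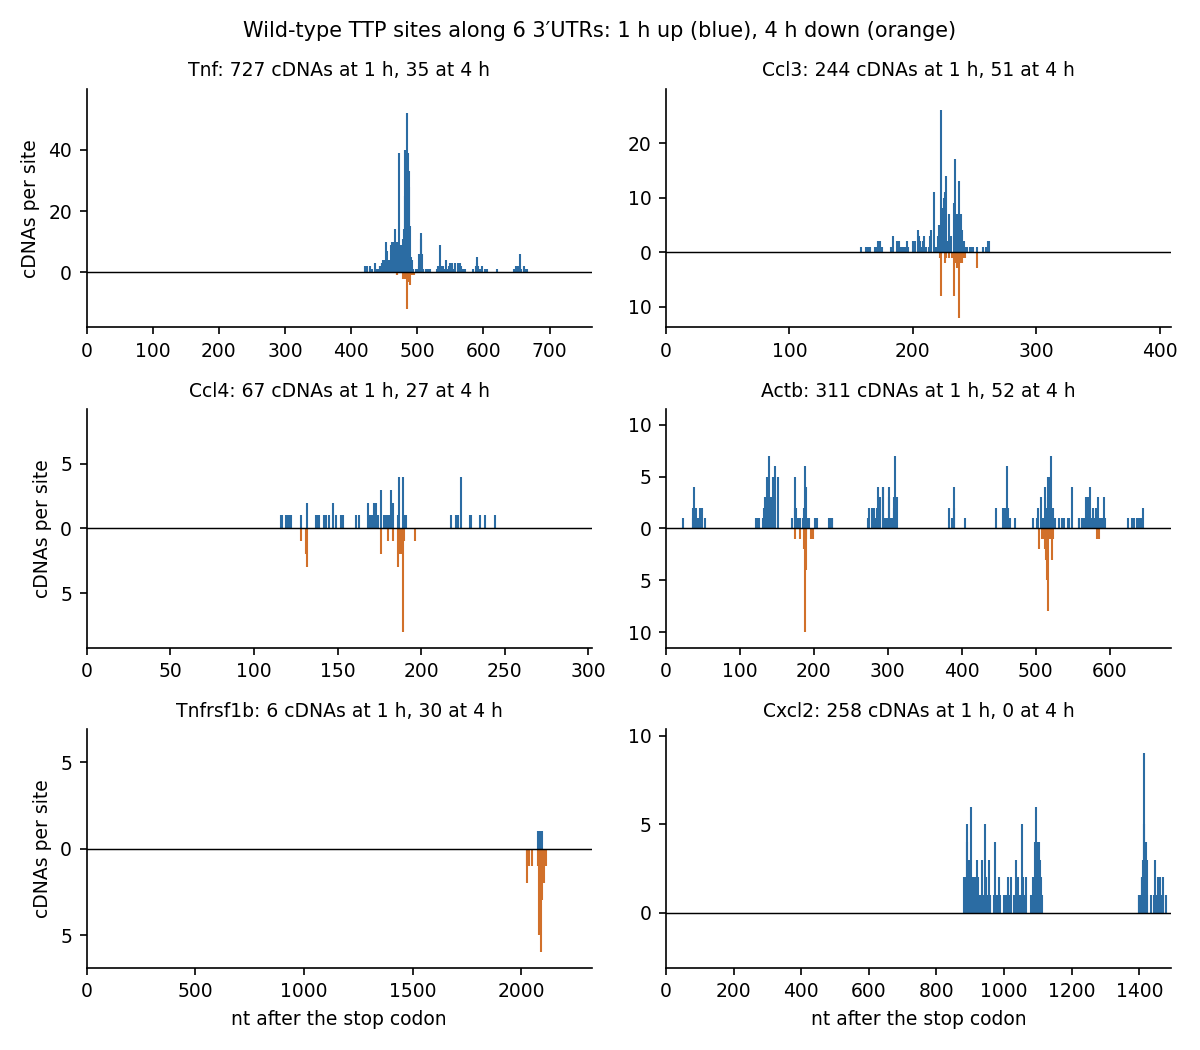
Vertical lines give the cDNAs per site (y axis) along 6 3′UTRs (x axis, nt after the stop codon), upward for 1 h (blue) and downward for 4 h (orange), each panel with its own scale. The 4 h sites of Tnf, Ccl3, Ccl4 and Actb lie within 15 nt of 1 h sites, Tnfrsf1b has 6 cDNAs at 1 h and 30 at 4 h, and Cxcl2 has 258 and 0.

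Of 23 feedback inhibitors, which restrain the inflammatory response, 9 had a 3′UTR site at 1 h and 1 of these at 4 h. Over all genes 81 of 1295 kept one, and 40 of the 156 with at least 10 cDNAs at 1 h. By their share of cDNAs, 6 of 8 tested members were lower and 0 higher of all cDNAs (median ratio 0.341), and 1 was lower and 0 higher of 3′UTR cDNAs (median 1.05). Of all 170 tested genes, 42 were lower and 10 higher of all cDNAs, and 8 and 39 of 3′UTR cDNAs. Dusp1, a phosphatase that inactivates p38 MAPK, went from 70 cDNAs to 0, at least 6.83-fold lower of all cDNAs and at least 2.21-fold lower of 3′UTR cDNAs. Its call on the second scale may not hold without Lars2. Nfkbia, the NF-κB inhibitor IκBα, went from 59 to 0, at least 5.76-fold lower of all cDNAs and 1.86-fold of 3′UTR cDNAs. Tnfaip3, the ubiquitin-editing enzyme A20, went from 55 to 0, at least 5.37-fold lower of all cDNAs and 1.74-fold of 3′UTR cDNAs. Ier3, an immediate early gene, was the member that kept sites, with 87 cDNAs at 1 h and 6 at 4 h and a ratio of 0.236 (0.0841 to 0.534) of all cDNAs and 0.728 (0.26 to 1.65) of 3′UTR cDNAs. In the TTP-AA lists, Dusp1, Nfkbia and Tnfaip3 had 214, 662 and 664 cDNAs at 1 h and 0 each at 4 h.

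Of 14 p53 target genes, 8 had a 3′UTR site at 1 h and 0 at 4 h. This loss was shared by 1214 of all 1295 genes, and by 116 of the 156 with at least 10 cDNAs at 1 h. Of 7 tested members, 4 were called lower of all cDNAs (median ratio 0.25) and 2 of 3′UTR cDNAs (median 0.772). Over all 170 tested genes, 42 and 8 were called lower on these scales. Mdm2, the ubiquitin ligase that degrades p53, went from 149 cDNAs to 0 and was at least 14.5-fold lower of all cDNAs and at least 4.71-fold lower of 3′UTR cDNAs. Gdf15, a stress-induced cytokine of the TGF-β family, went from 95 to 0 and was at least 9.27-fold lower of all cDNAs and at least 3-fold lower of 3′UTR cDNAs. Cdkn1a, which encodes the cell cycle inhibitor p21, went from 46 to 0 and was at least 4.49-fold lower of all cDNAs and at least 1.45-fold lower of 3′UTR cDNAs, which was not called.

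Of 16 genes for secreted and lysosomal macrophage proteins, 10 had a 3′UTR site at 1 h, and 5 of 6 tested members were lower of all cDNAs (median ratio 0.252) and 3 of 3′UTR cDNAs (median 0.778). Over all 170 tested genes, 42 and 8 were lower on these scales. Spp1, which encodes osteopontin, went from 97 cDNAs to 0, Lpl, lipoprotein lipase, from 86 to 0, and Lyz2, the macrophage lysozyme, from 68 to 0. They were at least 9.47-fold, 8.39-fold and 6.64-fold lower of all cDNAs, and remained at least 3.06-fold, 2.72-fold and 2.15-fold lower of 3′UTR cDNAs. The call of Lyz2 on the second scale may not hold without Lars2. Lamp2, a lysosomal membrane protein, had 0 cDNAs at 1 h and 3 at 4 h. Immediate early transcription factors had sites in 7 of 21 genes at 1 h and in 2 at 4 h, Jun with 9 and 5 cDNAs and Jund with 12 and 3, and 2 of 4 tested members were lower of all cDNAs, whereas 0 were lower and 2 higher of 3′UTR cDNAs. Over all genes, 81 of 1295 kept a 3′UTR site, and 39 of 170 tested were higher of 3′UTR cDNAs.

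Sites were also kept in Actb, Pfn1, Ybx3 and Atp6v0b. The study listed Actb among its top iCLIP targets but treated this mRNA as a negative control of binding. Background crosslinking was not measured here, since no control library was used. Actb, which encodes β-actin, had 311 cDNAs at 151 sites at 1 h and 52 at 22 sites at 4 h, a ratio of 0.571 (0.417 to 0.768) of all cDNAs and 1.76 (1.29 to 2.37) of 3′UTR cDNAs. Its sites ran from nt 23 to 645 at 1 h, whereas at 4 h the windows around nt 188 and nt 521 held 21 and 27 of the 52 cDNAs. At 1 h these windows held 29 and 43 of 311. The first of them includes the AUUUA of this 3′UTR, which has only 1, and held 0 cDNAs in the 0 h list and 54 and 0 in the TTP-AA lists at 1 h and 4 h. Pfn1, the actin-binding profilin, had 70 and 11 cDNAs and has no AUUUA in its 3′UTR. Of the 20 actin cytoskeleton genes, 13 had a 3′UTR site at 1 h and Actb and Pfn1 at 4 h, 2 of 6 tested were lower of all cDNAs and 0 of 3′UTR cDNAs. Over all 170 tested genes, 42 and 8 were lower on these scales, and 81 of 1295 genes kept a 3′UTR site.

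Ybx3, a cold shock domain RNA-binding protein, had 134 cDNAs at 1 h and 30 at 4 h (ratio 0.765 of all cDNAs, 0.497 to 1.14, and 2.36 of 3′UTR cDNAs). The window around its leading 1 h site at nt 478 held 70 of 134 and then 30 of 30 cDNAs. Atp6v0b, a subunit of the vacuolar proton pump, had 83 and 25 cDNAs (ratio 1.03, 0.63 to 1.63, and 3.18 of 3′UTR cDNAs). Its leading site, at nt 38, was the same at both times, and the window around it held 72.3% (61.8 to 80.8%) and 60% (40.7 to 76.6%) of its cDNAs.

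Tnfrsf1b, the TNF receptor 2, had the highest ratio of the 10 genes called higher. It had 6 cDNAs at 6 sites at 1 h and 30 cDNAs at 17 sites at 4 h, against 1.76 for an equal share, a ratio of 17.1 (6.99 to 50.2) of all cDNAs. Its sites lay near the end of a 3′UTR of 2324 nt, from nt 2077 to 2093 at 1 h and from nt 2024 to 2112 at 4 h. In the TTP-AA lists it had 73 and 15 cDNAs and in the 0 h list 6. All 10 genes were higher on the scale of 3′UTR cDNAs as well, where the ratio of Tnfrsf1b was 52.7. Itga5, the integrin α5 chain, had 3 and 7 cDNAs (ratio 7.97, 1.82 to 47.8), and Dpysl2, a microtubule-associated protein, had 5 and 11 (7.51, 2.41 to 27.6). Cpne3, a calcium-dependent phospholipid-binding protein, and Mcmbp, a binding protein of the replicative MCM complex, had 5 cDNAs at 1 h and 6 at 4 h each (4.1, 1.04 to 17). Lars2 is described below, and the other 4 genes, named after their values were seen, were Acod1 with 8 and 7 cDNAs, Med13 with 7 and 5, Eif4a1 with 15 and 10 and Hist1h3c with 10 and 8. Tnfrsf1b, Itga5, Dpysl2, Cpne3, Mcmbp, Acod1 and Med13 had fewer than 10 cDNAs at 1 h. They entered the comparison only through their 4 h cDNAs, so their calls are no independent sign of a gain. Each of the 46 genes found only in the 4 h list had 1 to 4 cDNAs, and 37 of them had a 3′UTR site in the TTP-AA list at 1 h.

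Lars2, a mitochondrial leucyl-tRNA synthetase, took 3.04% of the 3′UTR cDNAs at 1 h and 21.7% at 4 h, with 291 and 197 cDNAs. Its ratio was 2.31 (1.92 to 2.78) of all cDNAs and 7.14 (5.93 to 8.59) of 3′UTR cDNAs. Its leading site moved from nt 120 with 77 cDNAs at 1 h to nt 281 with 98 cDNAs at 4 h. The window at nt 281 (chr9:123461945-123461973, plus strand) held 53 cDNAs at 1 h and 165 at 4 h and has no AUUUA.
Lars2: cagaaaagttaccacagggataactggct
A stretch of 41 nt of the Lars2 3′UTR around it (nt 264 to 304) is identical to sequence of AA474408, a gene annotated as TEC, and 71 cDNAs at 1 h and 170 at 4 h lay within 5 nt of that stretch. AA474408 itself rose from 13 to 107 cDNAs (ratio 28.1, 15.8 to 54.5), at positions 1452 to 1455 of its 3339 nt and so outside the stretch, which starts at 1507. Whether those reads came from Lars2, from AA474408 or from another RNA, such as ribosomal RNA, was not tested. All 90 cDNAs of Rnf225 at 1 h and all 28 at 4 h lay in sequence shared with small RNA genes, as did 2.36% of the 3′UTR cDNAs at 1 h and 5.85% at 4 h.

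The 4 h sites in 3′UTRs lay mostly near 1 h sites, but nearness also went with the number of sites in the other list. Of 537 3′UTR sites at 4 h, 366 had a 1 h site within 15 nt on the strand (68.2%, Wilson interval 64.1 to 72%), and they held 78.9% of the cDNAs. Averaged over genes the share was 50%. Of the same 4 h sites, 80.8% lay as near to a TTP-AA 1 h site, 54.2% to a 0 h site and 29.4% to a TTP-AA 4 h site. Those lists have 61183, 3359 and 701 3′UTR sites in this order. In the other direction, 680 of the 6775 3′UTR sites of 1 h had a 4 h site within 15 nt (10%), with 2.76 cDNAs per site against 1.26 for those without. In exons of non-coding genes 93.1% of the 4 h sites, and in introns 54.8%, had a 1 h site within that distance.

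AUUUA within 20 nt in the spliced transcript was found at 37.9% of the 1 h sites and 42.1% of the 4 h sites, a difference of 4.23 points whose interval includes 0 (-0.0886 to 8.65). Over all positions of the same 3′UTRs, weighted by sites per gene, the shares were 9.01% and 8.58%. Without Lars2 and shared sequence the difference was 8.83 points (4.16 to 13.5), an alternative chosen after the data were seen. Counted over cDNAs instead of sites the direction turned, with 43.4% at 1 h and 39.6% at 4 h. Without Lars2 and shared sequence these were 46% and 55.1%. The 1 h sites that were kept differed from the others: AUUUA was near 60.3% of the 660 kept sites and 35.4% of the 5939 sites not kept. Within the genes that kept a 3′UTR site, the sites not kept had it at 23.4%. Of the 4 h sites, 53.2% of those near a 1 h site and 18.1% of those away from any had AUUUA. The longer UAUUUAU was near 41.2% of the kept and 20.1% of the not kept 1 h sites.

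The kept sites also held more cDNAs, so sites were compared at similar levels, by the cDNAs within 15 nt at 1 h. With 10 to 19 cDNAs, 22% of the sites near AUUUA (82 of 372) and 21.3% of the others (73 of 343) were kept. With 20 to 49, 37.7% (32.4 to 43.3%) and 28.7% (23.5 to 34.5%) were kept, and with 50 or more, in 9 genes, 66.9% (59.6 to 73.4%) and 44.4% (33.5 to 55.9%). With 5 to 9, 9.8% (7.66 to 12.5%) and 6.39% (5.03 to 8.09%) were kept. With 1 to 4, 2.64% (1.83 to 3.79%) and 0.819% (0.531 to 1.26%) were kept. Sites of 1 gene share their transcript, and the intervals do not count that.

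**Figure D5:**
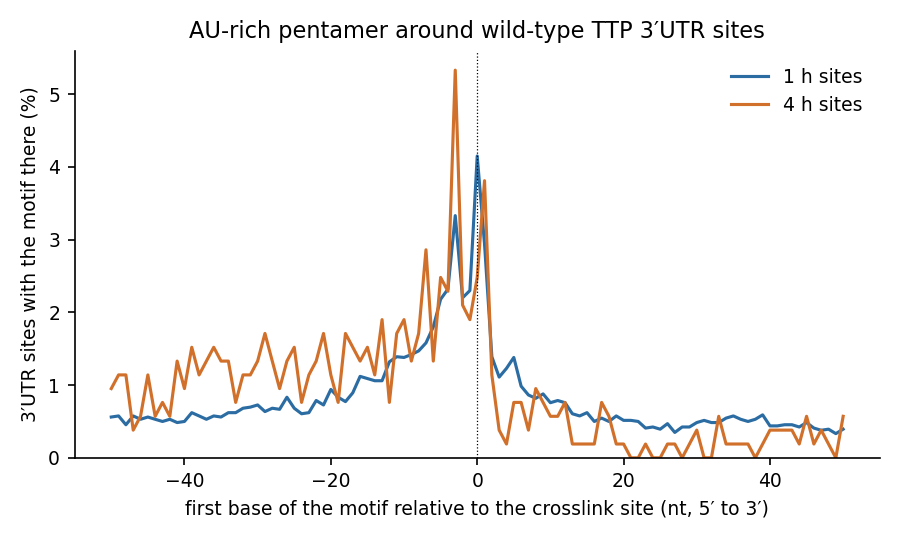
Lines give the share of 3′UTR sites (y axis, percent) with the pentamer AUUUA starting at each distance from the crosslinked base (x axis, nt, negative for upstream) for the 6599 sites of 1 h (blue) and the 525 of 4 h (orange) that lie on the chosen 3′UTR. The highest point is 4.15% at 0 nt for 1 h and 5.33% at -3 nt for 4 h.

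Uridine was the crosslinked base at 63.8% of the 3′UTR sites at 1 h and 63.8% at 4 h, against 31% and 30.3% of all positions of these 3′UTRs. The median site lay 512 nt (1 h) and 509 nt (4 h) after the stop codon and 533 nt and 438 nt before the end of the 3′UTR, and the first 100 nt held 9.27% and 6.67% of the sites. Among genes with at least 10 cDNAs at 1 h, the 40 kept genes had a median 3′UTR of 977 nt with 2 AUUUA and the 116 lost genes 1630 nt with 4. Their AUUUA density was 2.71 and 2 per 1000 nt, and their median cDNAs at 1 h were 18.5 and 14.5.

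In coding sequence, 5 of 30 tested genes were lower (16.7%) and 7 higher (23.3%). Of the 30, 24 had at least 10 cDNAs at 1 h, and the others passed the filter only with their 4 h cDNAs. Fth1, the iron-storing ferritin heavy chain, had 130 CDS cDNAs at 1 h and 0 at 4 h, at least 12.7-fold lower of all cDNAs, and its 5′UTR went from 55 to 0. The CDS of Actb went from 45 to 0, and that of Lyz2 from 40 to 7. The genes with most CDS cDNAs at 4 h had low counts: Mroh6 had 12 and 15 cDNAs, Vsig8 0 and 15, and Ccn1 22 and 14. In 5′UTRs, 4 of 29 tested genes were lower (13.8%) and 7 higher (24.1%). Here 23 of the 29 had at least 10 cDNAs at 1 h, and among those called higher only Gpd2 (24 and 16 cDNAs) did. No gene of the 2 regions exceeded 18 cDNAs at 4 h.

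Among exons of non-coding genes, 50 of 144 tested were lower (34.7%) and 19 higher (13.2%). Of the 144, 137 had at least 10 cDNAs at 1 h. Malat1 (chromosome 19), an abundant nuclear long non-coding RNA, went from 716 cDNAs to 0, at least 69.9-fold lower of all cDNAs. In the 0 h list it had 3, and in the TTP-AA lists 1183 at 1 h and 0 at 4 h. Its high counts were thus in the 2 lists of 1 h LPS, which are also the 2 with the header mark. Time and mark cannot be told apart here. The mitochondrial 12S rRNA mt-Rnr1 went from 448 to 14 cDNAs (ratio 0.107, 0.0579 to 0.181), while the 16S rRNA mt-Rnr2 went from 867 to 170 (0.67, 0.565 to 0.79) and was not called. Of the 2 genes of the ribosomal RNA locus, Gm42418 took 16.2% of the list at 1 h and 20.2% at 4 h (ratio 1.24, 1.21 to 1.28), and Gm26917 took 9.2% and 8.66% (0.941, 0.9 to 0.984). Small nuclear RNA genes held 2.28% of the list at 1 h and 0.974% at 4 h, and the annotated rRNA genes of the nucleus, such as 5S copies, 0.855% and 1.04%. Their copies are near identical, so counts of single copies are uncertain.

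In introns, 22 of 193 tested genes were lower (11.4%) and 49 higher (25.4%). Of the 193, 150 had at least 10 cDNAs at 1 h, and the others passed the filter only with their 4 h cDNAs. The leading intron counts came from short stretches: all 2527 cDNAs of Cdk8 at 1 h lay between positions 146260990 and 146261339 of chromosome 5, and the 1026 of 4 h between 146260994 and 146261337. All 895 cDNAs of Cmss1 at 4 h (1797 at 1 h) and all 212 of Spata5 (338 at 1 h) likewise fell within 1000 nt. The ratios were 1.39 (1.29 to 1.49) for Cdk8, 1.7 (1.57 to 1.84) for Cmss1 and 2.14 (1.8 to 2.55) for Spata5. Gm19951 had 679 and 214 cDNAs and Camk1d 537 and 167, with ratios of 1.08 and 1.06. Between genes, 10 bins of 1000 nt held 39.4% of the intergenic cDNAs at 1 h and 44.3% at 4 h, and the bin with most cDNAs at both times (chromosome 11, 109011000 to 109011999, minus strand) took 4.18% and 4.05% of the lists. Sequence shared between these stretches and ribosomal RNA was not tested, since no genome sequence was used here.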

How the data were processed

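iCLIP was performed by GFP-nanotrap on GFP-TTP macrophages. According to the study's methods, the authors removed PCR duplicates by random barcodes, mapped reads with Bowtie to mm10 (Ensembl 75) and placed each crosslink 1 position upstream of the read start. The deposited value of each site is a score, a signed whole number of unique cDNAs summed over the libraries of a group, kept at FDR 0.05 by iCount with 100 permutations within 15 nt. No scaling is described.

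Sites were assigned to GENCODE M21 (GRCm38, same assembly as mm10) in the order 3′UTR, CDS, 5′UTR, non-coding exon, intron (rest of a gene body) and intergenic, with Python 3.11.15, NumPy, pandas and SciPy. 3′UTR positions and motifs used the transcript with the longest 3′UTR. Shared sequence means a 25-nt match, over or next to the site, to a transcript of Gm26917, Gm42418 or a small RNA gene (annotated rRNA genes included). A small RNA gene at the site also counted. Ribosomal RNA sequence missing from these transcripts was not screened. Intervals are Wilson, Newcombe and, for ratios, exact conditional ones. Short random barcodes limit cDNA counts. The statistics were tested on simulated data.

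Named genes were the 27 listed by the study, chosen by it partly on these samples, the 10 with most 3′UTR cDNAs per list, the 5 lowest and 5 highest called ratios, the 5 leading genes of CDS, introns and non-coding exons, and gene list members with a 4 h site. Other named genes were chosen after their values were seen. Members, lists and alternatives were chosen with earlier results of these data known. Of the 27 study genes, 27 had a 3′UTR site at 1 h and 8 at 4 h, with 19 lower and 1 higher. Over all genes, 81 of 1295 kept a 3′UTR site, and 42 of 170 tested were lower and 10 higher. All 27 study genes were among those tested, so a closer base is that of genes with many cDNAs. Of 156 genes with at least 10 cDNAs at 1 h, 40 kept a 3′UTR site. Of 11 iron and stress genes, 5 had a 3′UTR site at 1 h and 1 (Hmox1, 4 and 2 cDNAs) at 4 h. The 0 h TTP-AA list was not used.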

Additional observations from a re-analysis of the deposited data

Results flagged for a closer look

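Results were noted here where the change from 1 h to 4 h ran in opposite directions for TTP and TTP-AA, each with 1 pooled list per time. These differences were not tested. For Itga5, the 3′UTR held 3 cDNAs at 1 h and 7 at 4 h in the TTP lists, a ratio of 7.97 of all cDNAs. In the TTP-AA lists it held 80 and 1, a ratio of 0.341 with the single cDNA set to 3. The whole 3′UTR share of TTP-AA fell from 53.6% to 5.22%, so the fall of Itga5 there cannot be told apart from that of the region. Its TTP-AA share of 3′UTR cDNAs was not compared. In the TTP lists, Itga5 entered the comparison only through its 4 h cDNAs. Without the ribosomal RNA locus, the share of cDNAs in exons of non-coding genes changed by -3.67 percentage points for TTP and by 1.58 points for TTP-AA.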

How the results depend on the processing

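No paired analysis was possible because each list is a sum over its libraries and carries no replicate values, and for the same reason no library could be left out. The fall of the 3′UTR share (-6.51 points) kept its direction in all 6 alternatives run, at -19.4 points with each site counted once, -8.88 without the ribosomal RNA locus, -11.8 among mRNA exons, -4.01 with at least 5 cDNAs within 15 nt and -6.91 without Lars2 (added after seeing the data). The non-coding exon difference (0.555 points) was 5.54 with each site counted once, -3.67 without the locus and -0.244 with at least 5 cDNAs within 15 nt. The share of 1 h genes kept (6.25%) was 25.6% with at least 10 cDNAs at 1 h, 9.93% with at least 5 cDNAs within 15 nt and 12.4% when any exon or intron counted. Measured of 3′UTR cDNAs, 8 genes were lower and 39 higher instead of 42 and 10. The 10 higher genes became 3 with at least 20 cDNAs and 6 when the interval had to exclude 1. The share of 4 h sites near a 1 h site (68.2%) was 39.5% at the same nucleotide, 72.6% within 50 nt and 50% as a mean over genes. The AUUUA difference (4.23 points) was 8.83 without Lars2 and shared sequence, and its direction turned when counted over cDNAs. Of 27 alternatives, 19 moved a value beyond its interval or a count beyond 1.5 times, and 8 did not. Depth limits the gene calls: a gene at 0 at 4 h could be called lower only from 21 cDNAs at 1 h.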
